A study of Mus musculus with 18 samples.

Results

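The lymphoid priming regulators examined here were 10 genes of 24421 in the count table, chosen by name for their known roles in starting lymphoid gene expression: Satb1, Ikzf1, Ikzf2, Tcf3, Tcf4, Dntt, Bcl11a, Notch1, Mef2c and Sox4. All 10 were found by symbol, and 9 of them passed a filter of a mean of at least 1 CPM, the read count scaled to library size, over the libraries. Dntt did not. RNA was sequenced from hematopoietic stem cells (HSCs) of young (2 to 3 months of age) and aged (23 to 25 months of age) mice, all on a C57BL/6J background and all carrying the Hoxb5-tri-mCherry reporter, in which mCherry fluorescence follows the transcription factor gene Hoxb5. From each age, bulk-HSCs were sorted by surface phenotype, LT-HSCs (long-term HSCs) were the reporter-positive cells within that gate and ST-HSCs (short-term HSCs) the reporter-negative ones, so that no group lacked the reporter and bulk-HSCs held cells of both other fractions. Each of the 6 groups had 3 libraries, 18 in all. Neither the labels nor the methods say whether the 3 came from separate animals or from pools, so p-values measure the spread between these libraries, which may be technical. Nor do they say whether fractions of 1 age came from the same animals. If they did, p-values for the mean age difference over fractions would be too small.

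Lymphoid priming is the low-level transcription of lymphoid genes in cells that can still form every blood lineage. It is set by a small network of nuclear proteins. The Ikaros family zinc fingers encoded by Ikzf1 and Ikzf2 act with chromatin remodelers, the E proteins encoded by Tcf3 and Tcf4 bind E-box DNA and are held back by Id proteins, and Notch1 is the cell surface receptor whose signal starts T cell fate. Satb1, Bcl11a, Mef2c and Sox4 encode further DNA-binding factors needed for early lymphoid cells, and Dntt encodes terminal transferase, the enzyme that adds bases at antigen receptor gene joints.

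Libraries held 16495048 to 22973844 counts, and 11548 to 13876 genes had a count in the young libraries against 13526 to 14133 in the aged ones. The young LT-HSC and young ST-HSC libraries numbered 3 stood apart. They had the fewest detected genes, 11665 and 11548, and 163 and 160 of 9653 well-expressed genes were at 0 in them, against at most 67 in any other library. The main calls that use these libraries are given with and without them. Hoxb5 averaged 19.1 CPM in young and 22.97 CPM in aged LT-HSCs against 2.08 and 2.21 CPM in ST-HSCs. In bulk-HSCs Hoxb5 averaged 3.97 CPM when young and 9.80 CPM when aged. The authors report that ST-HSCs become fewer relative to LT-HSCs within bulk-HSCs with age. The part of this mix in the bulk-HSC age differences, and in the mean over fractions that includes them, was not tested. Kit, the HSC receptor, averaged 1222 CPM or more in every group. Of the markers listed for B cells, T cells and plasmacytoid dendritic cells, Cd3e, Cd3g, Cd8a, Ms4a1, Pax5, Ebf1, Igll1 and Siglech were at 0 in all 18 libraries. The summed level of 9 B cell markers was 10.6 to 29.2 CPM over the libraries and lay mostly in Cd79b, that of 8 T cell markers was 3.81 to 22.9 CPM, and that of 6 plasmacytoid dendritic cell markers was 0 to 32.2 CPM. Among the T cell markers Lck averaged 6.53 to 12.7 CPM over the groups, and Cd4 and Thy1 reached 8.78 and 6.89 CPM in a library. Among the plasmacytoid dendritic cell markers Lag3 averaged 10.1 to 15.1 CPM over the young and 22.2 to 27.4 CPM over the aged groups, and Ccr9 reached 8.47 CPM in a library. In bulk RNA, fewer expressing cells and less RNA per cell cannot be told apart.

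The regulators were unequal in level. Per kilobase of merged exons and averaged over the 18 libraries, Ikzf1 stood highest at 39.5 ± 8.86 CPM per kilobase (SD, n = 18). Bcl11a followed at 37.9 ± 4.93, Tcf3 at 33.6 ± 4.67, Sox4 at 32.7 ± 7.66 and Mef2c at 27.9 ± 13.01 CPM per kilobase, and each of these levels lay within the SD of its neighbours in the order. Notch1 at 17.4 ± 3.403, Ikzf2 at 14.01 ± 2.94 and Tcf4 at 10.1 ± 2.53 CPM per kilobase came next, where neighbours again lay closer than the sum of their SDs, and Notch1 lay below Mef2c by less than the SD of Mef2c. Satb1, at 0.908 ± 0.723 CPM per kilobase, was far below Tcf4, and Dntt had no count. Satb1 had 17 to 705 counts in a library. The order differed between ages. In young cells Ikzf1 (38.8), Tcf3 (36.9), Bcl11a (35.3) and Sox4 (35.1 CPM per kilobase) led, with Mef2c at 16.6 below Notch1 at 18.2. In aged cells Bcl11a (40.5), Ikzf1 (40.2) and Mef2c (39.2 CPM per kilobase) led.

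Age was compared within each fraction and as the mean of the 3 within-fraction differences, with edgeR's quasi-likelihood test and p-values adjusted by Benjamini-Hochberg over 12808 genes. Mef2c rose and Ikzf2, Satb1 and Tcf3 fell on the mean over fractions, 4 of 9 tested regulators, where 6.75% of all tested genes passed. With the count of detected genes as a covariate, Mef2c passed on the mean (adjusted p = 0.0427, edgeR), while Ikzf2 (0.262), Satb1 (0.135) and Tcf3 (0.578) did not. In bulk-HSCs 2 of 9 passed, Mef2c higher and Ikzf2 lower, against 1.98% of genes. In ST-HSCs 1 of 9 passed, Mef2c, against 0.851% of genes. In LT-HSCs edgeR called 0 of 9 against 0.445% of genes, 3 of 9 had an unadjusted p under 0.05 (8.81% of genes), and DESeq2 and limma-voom each called 1, Mef2c. The median log2 fold change of the 9 regulators was -0.13 on the mean over fractions, beside 0.04 for all tested genes. Libraries of the 2 ages did not overlap for 4 of 9 regulators in LT-HSCs (16.1% of all tested genes), for 5 of 9 in ST-HSCs (17.8%) and for 5 of 9 in bulk-HSCs (22.7%). A difference between fractions in the change with age was not shown for any regulator. edgeR called 0 of 9 in each of the 3 tests of that difference, as did DESeq2 and limma-voom, and 0 of 9 had an unadjusted p under 0.05. Among all genes the difference passed for 0% between LT-HSCs and ST-HSCs, 0.00781% between LT-HSCs and bulk-HSCs and 0.0625% between ST-HSCs and bulk-HSCs, and 3.92%, 5.82% and 5.78% had an unadjusted p under 0.05.

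**Figure D1:**
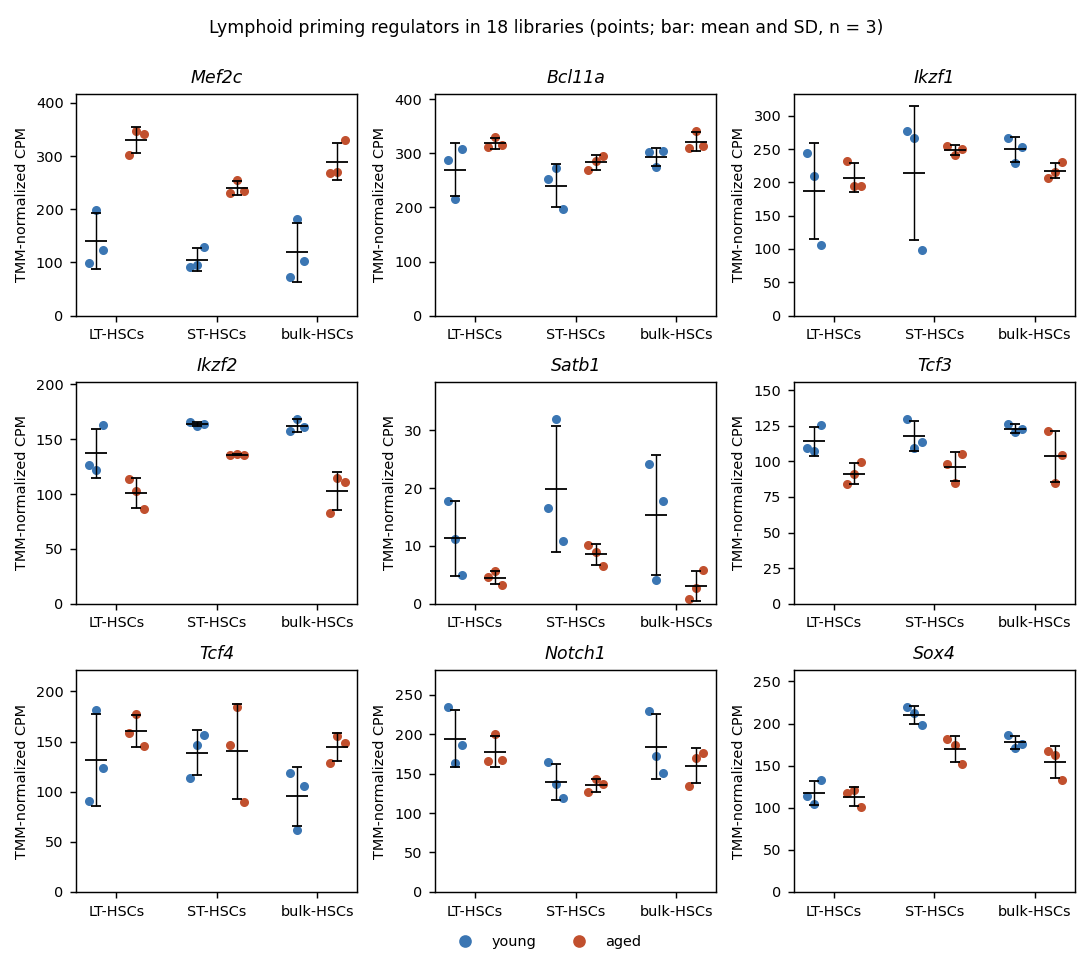
Each panel plots the TMM-normalized CPM of 1 regulator (y axis, from 0) in the 18 libraries, grouped by fraction on the x axis, with young in blue, aged in red, and the mean and SD of 3 libraries as black bars. Every aged library exceeds every young one for Mef2c, the young LT-HSC and ST-HSC libraries numbered 3 lie at 106 and 98.6 CPM for Ikzf1, and LT-HSCs lie below ST-HSCs for Sox4 at both ages.

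Mef2c, on chromosome 13 (83504034 to 83667080, plus strand, mm10), encodes a MADS-box transcription factor that favours lymphoid over myeloid fate in early progenitors. It had the largest rise with age among the tested regulators. Young LT-HSC libraries measured 99.2, 199 and 123 CPM and aged ones 303, 348 and 342 CPM. Young ST-HSC libraries measured 90.8, 94.9 and 130 CPM, against 230, 255 and 234 CPM in aged ST-HSCs. Young bulk-HSC libraries measured 73.2, 181 and 103 CPM and aged ones 269, 270 and 330 CPM. The 9 aged libraries, from 230 CPM upward, all lay above the 9 young ones, which reached 199 CPM, and the young LT-HSC and young bulk-HSC libraries numbered 2 were the highest of their groups. The log2 fold change, aged over young, was 1.24 ± 0.27 (SE) for LT-HSCs (adjusted p = 0.0521, edgeR), 1.19 ± 0.27 in ST-HSCs (adjusted p = 0.0438, edgeR) and 1.28 ± 0.27 in bulk-HSCs (adjusted p = 0.0185, edgeR). The mean over fractions was 1.24 ± 0.16 (adjusted p = 6.66e-05, edgeR). That mean passed without any 1 of the 18 libraries (adjusted p up to 0.000276) and without both young libraries numbered 3 (log2 fold change 1.27).

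Single fractions were close to the threshold for Mef2c. In ST-HSCs the adjusted p left the threshold whichever of the 6 ST-HSC libraries was dropped, reaching between 0.0516 and 0.151 by edgeR. In bulk-HSCs it was 0.0598 without young library 1, 0.0739 without young library 3 and 0.0793 without aged library 3, by edgeR. In LT-HSCs it passed at 0.0112 by edgeR without young library 2, and ranged from 0.00713 to 0.273 over the alternative analyses.

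RefSeq promoter entries (GRCm38.p6, the same assembly as mm10) were used for 8 of the 10 regulators. Ikzf2 had no entry, and Tcf4 was left out of the search. The 250 bases before the start are printed for the regulators that changed with age or between fractions and had an entry, with searched motifs in capitals. The motifs, read on both strands, were the E-box forms CAGGTG and CAGCTG bound by E proteins, TGGGAA for Ikaros factors and its extension GTGGGAA for the Notch partner Rbpj, which overlaps it, AACAAT for Sox factors and TAAAAATA for MEF2 factors. Of 32817 promoter windows of the same length, 17.2% held CAGGTG, 13% CAGCTG, 21.6% TGGGAA, 5.42% GTGGGAA, 9.42% AACAAT and 2.46% TAAAAATA. The first sequence lies before 1 of the 3 Mef2c starts in the table (chr13:83573357-83573606, plus strand) and held none of these motifs.
Mef2c: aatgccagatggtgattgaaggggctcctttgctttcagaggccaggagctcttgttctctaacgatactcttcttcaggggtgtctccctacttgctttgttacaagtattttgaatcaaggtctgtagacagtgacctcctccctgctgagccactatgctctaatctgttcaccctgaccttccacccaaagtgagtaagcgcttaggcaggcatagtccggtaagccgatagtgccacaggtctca

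**Figure D2:**
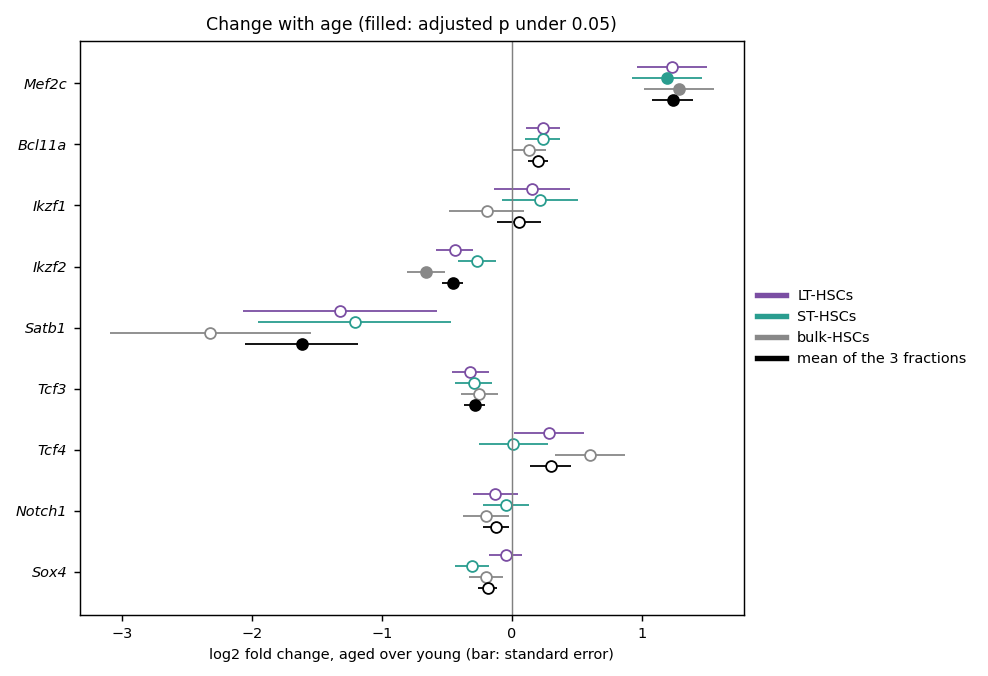
Log2 fold changes, aged over young (x axis), of 9 regulators (y axis) with standard errors as bars, in LT-HSCs (purple), ST-HSCs (green), bulk-HSCs (grey) and as the mean of the 3 fractions (black), where filled points have an adjusted p under 0.05. Mef2c lies near 1.2 in every fraction, Satb1 lies between -2.32 and -1.21 with the widest bars, and Ikzf1 lies on both sides of 0.

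Among the Ikaros family genes, Ikzf2 (chromosome 1, 69531214 to 69687245, minus strand), which encodes Helios, fell with age. In bulk-HSCs the young libraries measured 157, 169 and 161 CPM and the aged ones 82.6, 114 and 111 CPM. In ST-HSCs they measured 165, 162 and 164 CPM when young and 136, 136 and 136 CPM when aged. In LT-HSCs they measured 126, 122 and 163 CPM when young and 114, 103 and 86.2 CPM when aged. Aged libraries lay below young ones within each fraction without overlap, and the ST-HSC groups were the tightest. The log2 fold change was -0.66 ± 0.15 in bulk-HSCs (adjusted p = 0.0224, edgeR), -0.44 ± 0.15 in LT-HSCs (adjusted p = 0.278, edgeR) and -0.27 ± 0.14 in ST-HSCs (adjusted p = 0.614, edgeR), and its mean was -0.46 ± 0.08 (adjusted p = 0.00241, edgeR). The mean passed without any 1 of the 18 libraries (adjusted p up to 0.00621, edgeR), and was -0.41 without both young libraries numbered 3 (adjusted p = 0.00666, edgeR). The bulk-HSC difference did not pass by edgeR without young library 2 (adjusted p = 0.0605), young library 3 (0.0522), aged library 1 (0.117) or aged library 3 (0.0564).

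Ikzf1 (chromosome 11, 11685003 to 11772926, plus strand), which encodes Ikaros, a factor without which B cells do not form, turned on 2 libraries. It measured 106 CPM in young LT-HSC library 3 and 98.6 CPM in young ST-HSC library 3, against 194 to 278 CPM with a median of 237 CPM in the other 16. These were also the libraries with the fewest detected genes. With all libraries the log2 fold change with age was 0.15 ± 0.29 in LT-HSCs and 0.22 ± 0.29 in ST-HSCs, with -0.20 ± 0.29 in bulk-HSCs, and the mean was 0.06 ± 0.17 (adjusted p = 0.919, edgeR). Without both libraries the change was -0.14 for LT-HSCs, -0.12 for ST-HSCs and -0.15 on the mean (adjusted p = 0.202, edgeR), so that no direction could be given for Ikzf1.

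The drop in Ikzf1 in those libraries was uncommon among genes and was not shared by Ikzf2. Of 9712 genes with a mean of at least 10 CPM, 63 (0.649%) were at least 1.5-fold lower in both libraries than in any other library, and 4 (0.0412%) were at least 1.5-fold higher. Adam17, a protease that cuts Notch receptors, was the other one of the 63 among the listed genes, at no more than 23.6 CPM in both against at least 45.4 CPM elsewhere. Ikzf2 stayed at 163 and 164 CPM there, so that 1.54 and 1.66 Ikzf2 counts were present per Ikzf1 count, against 0.398 to 0.737 in the other libraries. The part of the lower gene detection in this difference was not tested.

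**Figure D3:**
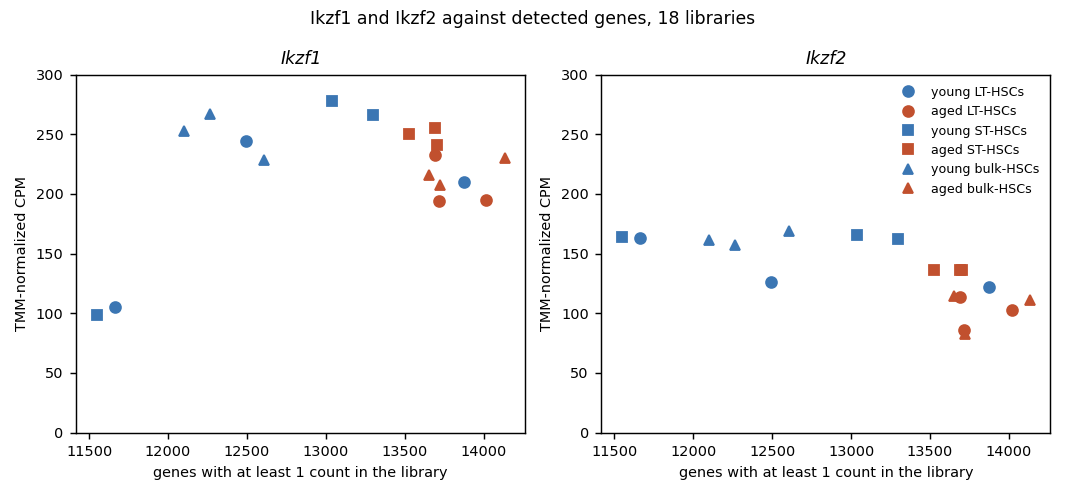
TMM-normalized CPM of Ikzf1 and Ikzf2 (y axes, from 0) against the number of genes with a count in each of the 18 libraries (x axes), with young in blue, aged in red, and circles, squares and triangles for LT-HSCs, ST-HSCs and bulk-HSCs. The 2 points at the lower left for Ikzf1, at 106 and 98.6 CPM, are the young LT-HSC and ST-HSC libraries numbered 3, which are among the highest points for Ikzf2.

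Satb1 (chromosome 17, 51736187 to 51833290, minus strand) encodes a chromatin organizer that lifts lymphoid genes in HSCs and is needed for T cell development. It was the least abundant of the tested regulators and the one with the largest fall. Young LT-HSC libraries measured 17.8, 11.2 and 4.92 CPM and aged ones 4.69, 5.60 and 3.25 CPM. Young ST-HSC libraries measured 16.6, 31.9 and 10.9 CPM and aged ones 10.1, 9.01 and 6.60 CPM. Young bulk-HSC libraries measured 24.2, 4.04 and 17.7 CPM and aged ones 0.749, 2.68 and 5.76 CPM. The groups overlapped in LT-HSCs and bulk-HSCs and were separate in ST-HSCs, and young libraries spread more widely than aged ones. The log2 fold change was -1.32 ± 0.75 in LT-HSCs and -1.21 ± 0.74 in ST-HSCs, with -2.32 ± 0.77 in bulk-HSCs (adjusted p = 0.691, 0.706 and 0.152, edgeR), and DESeq2 called the last (adjusted p = 0.0200, with a range of 0.0200 to 0.328 over the alternatives).

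The mean over fractions for Satb1 was -1.62 ± 0.43 (adjusted p = 0.0308, edgeR), and -1.83 without both young libraries numbered 3 (adjusted p = 0.0135, edgeR). It failed to pass by edgeR in 9 of the 18 fits that left out 1 library: young LT-HSC 1, young ST-HSC 2, young bulk-HSC 1, aged LT-HSC 1 and 3, aged ST-HSC 1, 2 and 3, and aged bulk-HSC 2. The adjusted p was then 0.0525 to 0.0710 and the log2 fold change lay between -1.90 and -1.44 over all 18 such fits. Of the 5 Satb1 starts in the RefSeq table, the window shown (chr17:51826589-51826838, minus strand) held CAGGTG on the opposite strand, printed as its complement CACCTG, at -172 to -167 from the start, and CAGCTG at -64 to -59.
Satb1: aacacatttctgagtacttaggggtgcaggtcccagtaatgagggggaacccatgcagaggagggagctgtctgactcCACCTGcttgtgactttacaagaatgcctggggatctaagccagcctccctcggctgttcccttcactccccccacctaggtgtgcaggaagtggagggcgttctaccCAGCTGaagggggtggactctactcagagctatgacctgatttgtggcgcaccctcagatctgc

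The E protein genes differed from each other. Tcf3 (chromosome 10, 80409514 to 80433647, minus strand), which encodes E12 and E47, was lower in aged cells. Young LT-HSC libraries measured 109, 107 and 126 CPM and aged ones 84.0, 91.1 and 99.2 CPM, while young ST-HSC libraries measured 130, 110 and 114 CPM and aged ones 98.2, 85.2 and 105 CPM. Young bulk-HSC libraries measured 126, 120 and 123 CPM and aged ones 121, 85.1 and 104 CPM. The ages were separate in LT-HSCs and ST-HSCs and overlapped in bulk-HSCs through aged library 1. The log2 fold change was -0.32 ± 0.14 in LT-HSCs and -0.29 ± 0.14 in ST-HSCs, with -0.25 ± 0.14 in bulk-HSCs (adjusted p = 0.532, 0.532 and 0.519, edgeR), and the mean of -0.29 ± 0.08 passed (adjusted p = 0.0439, edgeR). That call was marginal. It remained by edgeR without young ST-HSC 2, young LT-HSC 2, aged ST-HSC 3 or aged bulk-HSC 1, and failed without any 1 of the other 14 libraries, where the adjusted p was 0.0507 to 0.0981. Without both young libraries numbered 3 the mean was -0.27 (adjusted p = 0.0773, edgeR). It also failed by edgeR without a filter on low values (0.0581) and by limma-voom (0.0519), and adjusted p ranged from 0.00675 to 0.578 over the alternatives. The window before the Tcf3 start (chr10:80433636-80433885, minus strand) held none of the motifs.
Tcf3: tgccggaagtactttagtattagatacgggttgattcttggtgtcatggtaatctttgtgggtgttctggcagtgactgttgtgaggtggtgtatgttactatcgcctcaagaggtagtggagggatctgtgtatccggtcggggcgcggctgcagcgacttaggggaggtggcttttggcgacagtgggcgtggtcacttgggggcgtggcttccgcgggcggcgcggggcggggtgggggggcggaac

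Tcf4, which encodes E2-2, the E protein of plasmacytoid dendritic cells, had the opposite sign and no call. Its libraries ran from 62.2 to 182 CPM when young and from 89.8 to 184 CPM when aged, and the ages were separate only in bulk-HSCs, with 119, 62.2 and 105 CPM against 129, 156 and 148 CPM. The mean log2 fold change was 0.30 ± 0.16 (adjusted p = 0.312, edgeR). Aged ST-HSC library 3, at 89.8 CPM, was the lowest of the aged libraries.

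Bcl11a (chromosome 11, 24078056 to 24174123, plus strand) encodes a zinc finger repressor required for B cell development and for silencing fetal globin. Its libraries measured 197 to 307 CPM when young and 269 to 342 CPM when aged. Young LT-HSC libraries measured 288, 215 and 307 CPM against 312, 331 and 315 CPM in aged ones, so that these groups did not overlap. The mean log2 fold change was 0.20 ± 0.08 (adjusted p = 0.132, edgeR), and the range over the alternatives was 0.0477 to 0.472. The exact permutation test of this gene alone, exchanging ages within fraction, gave p = 0.00075 (two-sided).

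Notch1 and Sox4 were not called with age. Notch1 (chromosome 2, 26457903 to 26516663, minus strand) measured 119 to 234 CPM when young and 126 to 200 CPM when aged, with a mean log2 fold change of -0.13 ± 0.10 (adjusted p = 0.570, edgeR). Sox4 (chromosome 13, 28948919 to 28953713, minus strand) had a mean log2 fold change of -0.19 ± 0.07 (adjusted p = 0.158, edgeR), with -0.31 ± 0.13 in ST-HSCs and -0.05 ± 0.13 in LT-HSCs. Aged ST-HSC libraries, at 182, 174 and 152 CPM, lay below the young ones at 220, 212 and 198 CPM.

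Dntt (chromosome 19, 41029275 to 41059525, plus strand) was at 0 counts in all 18 libraries. A count of 0 allows up to 3 counts, a level of 0.131 to 0.182 CPM depending on the library, for counting error only. Of all gene rows, 32.1% were at 0 in every library, among them Mpo and Ctsg, neutrophil granule genes.

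As a check with no model across genes, the mean log2 difference with age was tested gene by gene by an exact permutation test over the 8000 exchanges of ages within fraction, two-sided and not adjusted, 18 such tests being made in all. Mef2c and Ikzf2 gave an exact p = 0.00025, the smallest these exchanges can give. Tcf3 gave 0.0005, Satb1 0.003, Sox4 0.01375, Tcf4 0.107, Notch1 0.272 and Ikzf1 0.522 in the same exact test. This test takes the libraries as independent, also between fractions, and so shares the limits on replicates and on fractions of 1 age given above.

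The fractions were compared within each age to ask whether the regulators separate LT-HSCs from ST-HSCs. Sox4, which encodes a SoxC factor needed for early B cell development, was the only regulator edgeR called in the fit of group means. Young LT-HSC libraries measured 114, 105 and 133 CPM, young ST-HSC libraries 220, 212 and 198 CPM, and young bulk-HSC libraries 186, 171 and 175 CPM. Aged LT-HSC libraries measured 117, 122 and 101 CPM, aged ST-HSC libraries 182, 174 and 152 CPM, and aged bulk-HSC libraries 168, 163 and 133 CPM. LT-HSCs lay below both other fractions at both ages without overlap, while bulk-HSCs lay between LT-HSCs and ST-HSCs when young and overlapped ST-HSCs when aged. Of 9 regulators 1 passed between LT-HSCs and ST-HSCs when young, where 0.429% of genes passed, and 1 passed on the mean of both ages, where 0.812% passed.

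The Sox4 log2 fold change, LT-HSCs over ST-HSCs, was -0.84 ± 0.13 when young (adjusted p = 0.00376, edgeR, and 0.257 in a fit on only these groups), -0.58 ± 0.13 when aged (adjusted p = 0.280, edgeR) and -0.71 ± 0.09 on the mean (adjusted p = 0.000674, edgeR). Its difference between ages was 0.26 ± 0.18 (adjusted p = 0.9999, edgeR), so an unequal gap was not shown. The mean passed without any 1 of the 12 libraries and in every alternative analysis run, with adjusted p up to 0.00446, edgeR's without 1 library. Without both young libraries numbered 3 it was -0.79 (adjusted p = 0.000640, edgeR). Against bulk-HSCs, young LT-HSCs were lower by -0.60 ± 0.13 (adjusted p = 0.0594, edgeR), which passed at 0.0415 without young LT-HSC library 3. The exact permutation test of the LT-HSC and ST-HSC difference, over 400 exchanges within age, gave p = 0.005, the smallest it can give. The window before the Sox4 start (chr13:28953700-28953949, minus strand) held CAGCTG at -211 to -206 and TGGGAA at -100 to -95 from it.
Sox4: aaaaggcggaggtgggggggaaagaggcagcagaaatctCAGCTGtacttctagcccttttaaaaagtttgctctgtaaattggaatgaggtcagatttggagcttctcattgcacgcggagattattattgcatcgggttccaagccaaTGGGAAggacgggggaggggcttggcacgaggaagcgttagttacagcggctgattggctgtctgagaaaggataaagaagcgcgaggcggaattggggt

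Notch1 lay higher in LT-HSCs. Young libraries measured 234, 163 and 186 CPM in LT-HSCs and 164, 137 and 119 CPM in ST-HSCs, and aged ones 166, 200 and 167 CPM in LT-HSCs and 126, 143 and 137 CPM in ST-HSCs. The groups were separate when aged and overlapped when young. The mean log2 fold change over ages was 0.43 ± 0.12 (adjusted p = 0.142, edgeR). Over the alternatives it ranged from 0.0156 with DESeq2 to 0.277, and the exact permutation test gave p = 0.01. With a block for replicate number within each age, edgeR also called Notch1. Ikzf2 had the opposite sign, at -0.34 ± 0.10 (adjusted p = 0.172, edgeR), with a range of 0.0485 with DESeq2 to 0.249 over the alternatives and an exact permutation p of 0.01. Mef2c had a value of 0.44 ± 0.19 (adjusted p = 0.432, edgeR) and an exact permutation p of 0.03, and Satb1 one of -0.87 ± 0.52 (adjusted p = 0.686, edgeR) and 0.04.

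When aged, 7 of 9 regulators did not overlap between LT-HSCs and ST-HSCs. Mef2c, Bcl11a and Notch1 were higher in every LT-HSC library, 3 of 9 where 8.67% of all tested genes were, and Ikzf1, Ikzf2, Satb1 and Sox4 were lower, 4 of 9 where 6.34% were. When young, 1 of 9, Sox4, did not overlap, against 12.1% of all tested genes. The sample quality weights of limma-voom, where a lower weight marks a wider spread, were 0.290 to 1.13 in young and 1.36 to 2.12 in aged libraries. edgeR called 0 of 9 between these fractions when aged, where 0.00781% of genes passed, 3 of 9 had an unadjusted p under 0.05 (3.41% of genes), and DESeq2 and limma-voom each called 1, Sox4. Between LT-HSCs and bulk-HSCs edgeR called 0 of 9 when young (0.273% of genes) with 1 of 9 at an unadjusted p under 0.05 (11.5%), and DESeq2 called 1 and limma-voom 0. The same comparison of aged cells gave 0 of 9 by all 3 tools (0% of genes by edgeR) with 1 at an unadjusted p under 0.05 (3.29%). Between ST-HSCs and bulk-HSCs edgeR, DESeq2 and limma-voom called 0 of 9 at either age, where edgeR passed 0.164% of genes when young and 0% when aged, and 2 and 1 regulators had an unadjusted p under 0.05 (9.63% and 2.70% of genes).

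**Figure D4:**
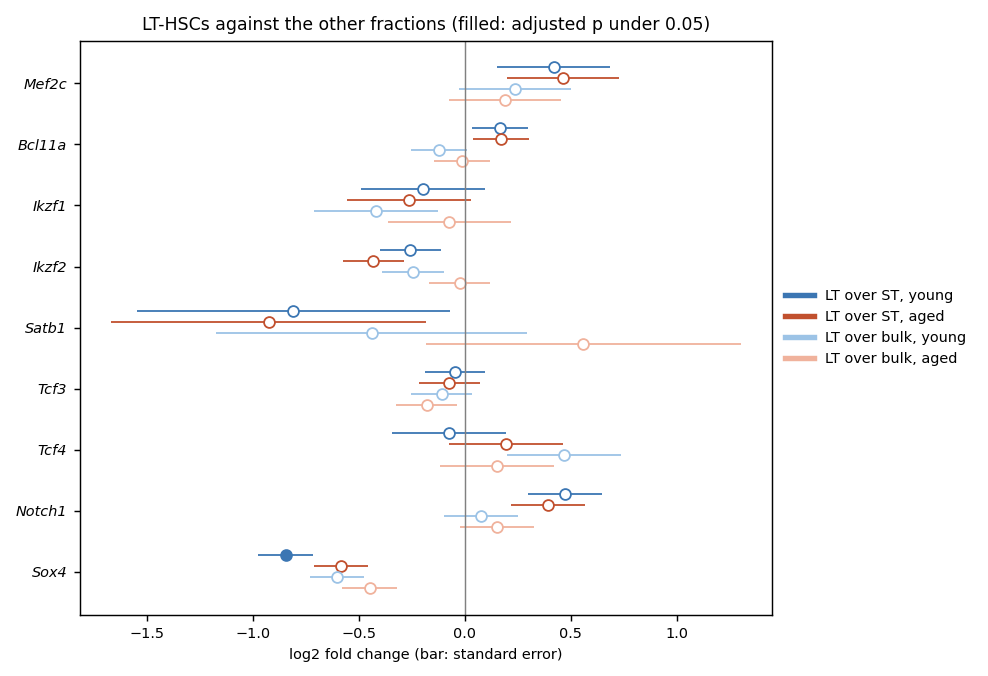
Log2 fold changes of LT-HSCs over ST-HSCs and over bulk-HSCs (x axis) for 9 regulators (y axis) when young (blue) and aged (red), paler for bulk-HSCs, with standard errors as bars and filled points where the adjusted p is under 0.05. Sox4 lies between -0.84 and -0.45 in the 4 comparisons, and the comparisons at 1 age share the LT-HSC libraries.

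The Id proteins, which hold back E proteins, and other E protein partners formed a list of 11 genes, of which 9 were tested. On the mean age effect 2 rose and 0 fell, where 4.34% of all tested genes rose and 2.40% fell, and the median log2 fold change was 0.15, beside 0.04 for all genes. Id2 was at 13.1, 32.5 and 36.04 CPM in aged LT-HSCs, 29.3, 40.4 and 20.4 CPM in aged ST-HSCs and 12.9, 17.98 and 26.95 CPM in aged bulk-HSCs. Young libraries had 7.68, 13.1 and 21.1 CPM in LT-HSCs, 5.90, 1.86 and 0 CPM in ST-HSCs and 4.59, 8.35 and 5.42 CPM in bulk-HSCs. Its mean log2 fold change was 2.05 ± 0.50 (adjusted p = 0.0168, edgeR), and 1.998 without both young libraries numbered 3 (adjusted p = 0.00110, edgeR). The ages overlapped in LT-HSCs. Runx1t1, a corepressor that can bind E proteins, rose by 1.34 ± 0.29 (adjusted p = 0.00919, edgeR) and in bulk-HSCs by 2.41 ± 0.53 (adjusted p = 0.0223, edgeR), a call lost without young bulk-HSC library 1 or 2 or aged bulk-HSC library 1 or 2 (adjusted p up to 0.0907, edgeR). Lmo2, a bridging factor in E protein complexes, had a value of 0.15 ± 0.04 (adjusted p = 0.0556, edgeR).

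Of 32 early lymphoid program genes 17 were tested, and 0 rose and 3 fell with age on the mean, where 4.34% of all tested genes rose and 2.40% fell. The median log2 fold change was 0.22, beside 0.04 for all genes. Flt3, the cytokine receptor of lymphoid-primed progenitors, fell by 1.32 ± 0.28 on the log2 scale (adjusted p = 0.00721, edgeR), from 9.16 to 89.3 CPM in young libraries to 3.88 to 25.2 CPM in aged ones. Cd34, which marks progenitors as Flt3 does, averaged 131, 241 and 153 CPM in young LT-HSCs, ST-HSCs and bulk-HSCs and 62.1, 118 and 73.3 CPM in aged ones. The summed level of 4 multipotent progenitor markers that include both was 114 to 339 CPM in young and 63.7 to 149 CPM in aged libraries, although the sort gates HSCs apart from multipotent and Flk2+ progenitors. Of these markers Il7r was at 0 throughout and Cd48 reached only 2.27 CPM, so the sum was nearly all Cd34 and Flt3. The summed level of 6 megakaryocyte and platelet markers was 75.0 to 169 CPM in young and 113 to 191 CPM in aged libraries, without overlap in LT-HSCs or ST-HSCs, and that of 11 granulocyte and monocyte markers was 149 to 268 and 230 to 315 CPM, without overlap in ST-HSCs or bulk-HSCs. The latter sum lay mostly in Prtn3 and Lyz2, which differed in direction. Prtn3 averaged 98.1, 77.1 and 54.9 CPM in young LT-HSCs, ST-HSCs and bulk-HSCs and 152, 149 and 125 CPM in aged ones. Lyz2 averaged 122, 141 and 121 CPM in the young fractions and 109, 122 and 111 CPM in the aged ones. The part of any of these in the age differences of the regulators was not tested. Xrcc6, which encodes the end-joining protein Ku70, had a log2 fold change of -0.43 ± 0.12 (adjusted p = 0.0432, edgeR) and Myb, a factor for early B and T cells, one of -0.22 ± 0.06 (adjusted p = 0.0472, edgeR), with -0.58 ± 0.11 in bulk-HSCs (adjusted p = 0.00982, edgeR, and 0.0508 without aged bulk-HSC library 3). The Myb mean came mostly from bulk-HSCs. Its value was 0.05 ± 0.11 in LT-HSCs (adjusted p = 0.976, edgeR) and -0.13 ± 0.11 in ST-HSCs (adjusted p = 0.869, edgeR). The calls for the mean of Xrcc6 and Myb were lost by edgeR in 13 and 16 of the 18 fits without 1 library, with adjusted p up to 0.0889 and 0.0918. Il7r, Ebf1, Pax5, Igll1, Ly6d and Blk were at 0 throughout.

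Between LT-HSCs and ST-HSCs 1 early lymphoid gene was higher and 2 lower in LT-HSCs on the mean of both ages, where 0.539% of all genes were higher and 0.273% lower. Foxo1, a factor that switches on Il7r and the Rag genes, was higher at 0.70 ± 0.13 (adjusted p = 0.0173, edgeR). Myb was lower at -0.39 ± 0.08 (adjusted p = 0.0220, edgeR) and Flt3 at -1.50 ± 0.34 (adjusted p = 0.0484, edgeR). Without 1 of the 12 libraries the call for Foxo1 was lost in 2 fits, those without aged LT-HSC or aged ST-HSC library 3 (adjusted p up to 0.0601, edgeR). That for Myb was lost in 4, without young LT-HSC 1, aged LT-HSC 3, aged ST-HSC 1 or aged ST-HSC 2 (up to 0.0710), and that for Flt3 in all but those without young LT-HSC 1 or aged LT-HSC 2 (up to 0.143). Without both young libraries numbered 3, Foxo1 was 0.77 (adjusted p = 0.0193, edgeR), Myb -0.42 (adjusted p = 0.0441, edgeR) and Flt3 -1.58 (adjusted p = 0.0928, edgeR).

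Of 39 Notch pathway genes 34 were tested, and 4 rose and 1 fell with age on the mean, where 4.34% of all tested genes rose and 2.40% fell. The median log2 fold change was 0.18, beside 0.04 for all genes. Adam10, the protease that cuts ligand-bound Notch, rose by 0.28 ± 0.06 (adjusted p = 0.00970, edgeR), Maml2, a coactivator, by 0.52 ± 0.14 (adjusted p = 0.0314, edgeR), and Jag2, a ligand, by 0.79 ± 0.22 (adjusted p = 0.0363, edgeR). Dtx3, a Deltex family ligase gene, fell by 0.40 ± 0.09 (adjusted p = 0.00922, edgeR). Dll1, a ligand, was called (adjusted p = 0.0190, edgeR), but 8 of 9 young libraries were at 0 and the highest level was 5.78 CPM in an aged library, so that no fold is given. The calls for Jag2 and Maml2 were each lost in 10 of 18 fits without 1 library (adjusted p up to 0.0848 and 0.0795, edgeR). Hey1, Hey2 and Dtx1 were at 0 throughout. With the count of detected genes as a covariate, none of the 10 genes called on the mean age effect in these lists passed by edgeR (adjusted p = 0.166 to 0.890).

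Of 21 relatives and chromatin partners of the Ikaros, SATB, BCL11, MEF2 and SoxC factors 16 were tested and 0 were called by edgeR on the mean age effect, where 6.75% of all tested genes passed, with a median of -0.11. The smallest p-values were those of Gatad2a, a remodeler subunit (0.44 ± 0.16, adjusted p = 0.110, edgeR), Mef2a (0.51 ± 0.19, adjusted p = 0.121, edgeR) and Hdac5, a class IIa deacetylase that binds MEF2 factors (0.43 ± 0.16, adjusted p = 0.129, edgeR). Ikzf3 and Bcl11b were at 0 throughout.

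**Figure D5:**
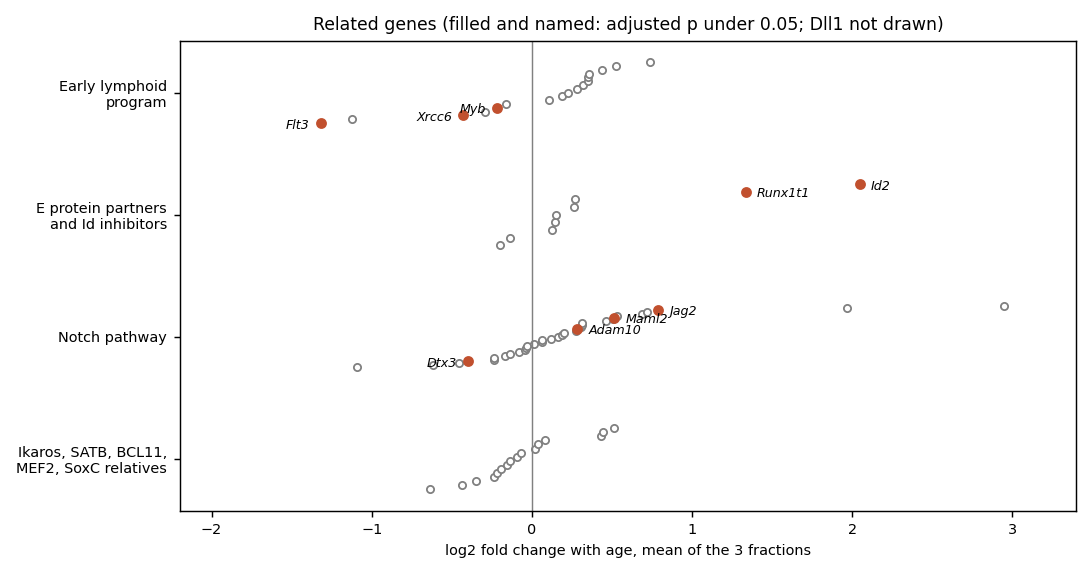
Log2 fold change with age as the mean of the 3 fractions (x axis) for the tested genes of 4 related lists (y axis), with genes at an adjusted p under 0.05 filled and named and Dll1 not drawn because most young libraries were at 0. Id2 at 2.05 and Flt3 at -1.32 are the outermost named genes, and no relative of the Ikaros, SATB, BCL11, MEF2 and SoxC factors is filled.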

How the data were processed

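RNA-seq counts of 18 libraries were analysed. Per the labels and the study's methods, the authors sorted cells after c-Kit enrichment, made ribosomal RNA-depleted libraries, mapped paired reads with HISAT2 to mm10 and quantified transcripts with StringTie 1.3.4d. The deposited values are whole-number counts per gene, not normalized. The annotation and strand setting of the counting are not given in the sources used here, so reads from overlapping antisense genes cannot be told apart. All 6 group means were fitted together with edgeR 4.0.16 (TMM, quasi-likelihood, 12 residual degrees of freedom) in R 4.3.3 on 12808 genes with a mean of at least 1 CPM. SEs are the log2 fold change over the root of F. Calls had an adjusted p under 0.05. Alternatives used DESeq2 1.42.0, limma 3.58.1, other scalings, filters and covariates. On simulated data with 200 genes changed 4-fold in aged LT-HSCs, 141 were called with the right sign and 7 unchanged genes were called. The regulators and lists were chosen with earlier results of these data known. All regulators are named. List genes are named where called or, failing that, for the 3 smallest p-values of their list.

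Samples with equal replicate numbers were not taken as paired, since the correlations of their deviations did not all exceed 0.1. Between LT-HSCs and ST-HSCs of 1 age, however, these correlations were 0.0175 to 0.124 at equal numbers, against -0.111 to 0.0281 at unequal numbers. Whether these 2 fractions were sorted from the same animals is not stated, and the main LT-HSC and ST-HSC tests leave out any such pairing. Levels per length used the merged exons of GENCODE coding transcripts.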

Additional observations from a re-analysis of the deposited data

How the results depend on the processing

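Counts of regulators called held in most alternatives, and the exceptions follow. With the count of detected genes as a covariate, 0 of 9 were called with age in ST-HSCs, 0 in bulk-HSCs and 1 (Mef2c) on the mean over fractions. Detected genes differ with age, so the covariate and age are partly confounded. In LT-HSCs 1 was called without a filter, with at least 10 counts in every library, with the replicate block, with DESeq2 and with limma-voom. Fits on only the groups compared called 0 with age in bulk-HSCs, and 0 for young LT-HSCs against ST-HSCs. For the mean LT-HSC and ST-HSC difference, DESeq2 called 3 and the replicate block within age 2 (Sox4 and Notch1). DESeq2 called 1 between young LT-HSCs and bulk-HSCs, as did leaving out both young libraries numbered 3, which was chosen after seeing the data. DESeq2 and limma-voom each called 1 between aged LT-HSCs and ST-HSCs. Without 1 library, counts with age ranged from 0 to 1 for LT-HSCs, stayed at 0 for ST-HSCs, and ranged from 0 to 2 for bulk-HSCs and 2 to 4 on the mean, and from 0 to 1 between young LT-HSCs and bulk-HSCs. Smaller moves were 3 with age in bulk-HSCs by DESeq2 (2 by edgeR), and 3 on the mean (4 in the reported fit) without a filter, with the replicate block and without both young libraries numbered 3. No other count changed in these alternatives.

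The sign of the age effect reversed for Ikzf1, and for no regulator difference with an unadjusted p under 0.05 and no called list gene. Other differences near 0 are not covered by this count. With the detected genes covariate its value was -0.42 for LT-HSCs, -0.21 for ST-HSCs and -0.55 on the mean, with limma-voom -0.031 on the mean, and without both young libraries numbered 3 it was -0.14, -0.12 and -0.15. Without young LT-HSC library 3 it was -0.13 for LT-HSCs and -0.037 on the mean, and without young ST-HSC library 3 it was -0.12 for ST-HSCs and -0.057 on the mean. Over all fits without 1 library Ikzf1 ranged from -0.13 to 0.39 for LT-HSCs, -0.12 to 0.45 for ST-HSCs and -0.057 to 0.14 on the mean. The cause was not tested.

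Over all fractions, same-numbered libraries of 1 age correlated in their deviations at -0.032 to 0.124 when young and -0.044 to 0.095 when aged. The same-numbered LT-HSC and ST-HSC pairs all lay above 0. With the replicate block, Mef2c passed in LT-HSCs (adjusted p = 0.0176, edgeR) and Satb1 did not on the mean (adjusted p = 0.0567, edgeR). For counting error only, depth limits Dntt, at 0 throughout, to the levels that 3 counts allow. Whether its 0 counts arose in the quantification was not tested.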

Other observations

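Summed over Tcf3, Tcf4 and their relative Tcf12, E protein gene levels were 315 to 453 CPM in the young and 365 to 434 CPM in the aged libraries. Summed over Id1, Id2 and Id3, the levels of the inhibitors were 0 to 21.1 CPM in the young and 13.1 to 41.1 CPM in the aged libraries. Id2 alone was 0 to 21.1 CPM in the young and 12.9 to 40.4 CPM in the aged libraries.

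Among 9712 genes with a mean of at least 10 CPM, the gene whose log2 level followed each regulator most closely over the 18 libraries was Rorb for Mef2c (Pearson's r = 0.953), Ccdc163 for Ikzf1 (0.941), Cmtm7 for Sox4 (0.889), Vim for Ikzf2 (0.845), Bcl2l13 for Tcf3 (0.834), Nek4 for Bcl11a (0.832), Fmnl1 for Satb1 (0.812), Pom121 for Notch1 (0.812) and Zfp334 for Tcf4 (0.797). These are descriptions. Each is the highest of many values, the libraries share their ages, fractions and depth, and differences between groups enter them.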
